A study of Homo sapiens with 20 samples.

Results

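The genes described here are the replication-dependent histone genes of the large cluster on the short arm of human chromosome 6, at 6p22. They were taken from the RefSeq annotation of GRCh38 as the protein-coding genes between 25.7 and 28.9 Mb whose symbol names an H1, H2A, H2B, H3 or H4 gene of this kind, by position and name and not by any measured value. The rule found 55 of 19974 protein-coding genes, with 6 H1, 12 H2A, 15 H2B, 10 H3 and 12 H4 genes. Another 37 protein-coding genes lie in the same interval. The genes are short, with a median body of 489 bp against 24170.5 bp over all protein-coding genes. They fall into 4 groups separated by more than 200 kb, which hold 2, 32, 5 and 16 genes in chromosomal order.

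The values come from ChIP-seq of HCT116 cells, a human line derived from a colorectal carcinoma, which were either MLL4 knockout (KO) or wild type (WT). MLL4 (gene KMT2D) methylates lysine 4 of histone H3, and the design text sets its cooperation with p53 as the question. H3K4me3, H3K27ac and p53 were measured in 2 libraries per genotype, and H3K4me1, MLL1 and MLL4 in 1. The deposited values are 18 peak lists, each called on its own library against the single input of its genotype. Both genotypes share the line, the medium and the crosslinking, the labels name no agent that activates p53, and they do not say whether the KO cells are 1 clone or whether replicates came from separate cultures. The spread between replicate libraries may therefore be only technical.

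Replication-dependent histone genes supply the core and linker histones that package newly made DNA, and most are transcribed in S phase. Their mRNAs carry no poly(A) tail and end in a stem-loop that is bound by SLBP. Transcription takes place in nuclear histone locus bodies, where NPAT acts as a coactivator, and many H2A and H2B genes stand head to head around a shared promoter. H3K4me3 marks promoters, H3K27ac active promoters and enhancers, and H3K4me1 enhancers and promoter flanks. MLL1, encoded by KMT2A, is another H3 lysine 4 methyltransferase, and p53 is a transcription factor that binds specific DNA elements.

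The promoters of 6 genes are printed because the results turn on their genes, from 250 bases before to 50 after the start, from RefSeq on GRCh38.p14. They are 300 bases long and run 5′ to 3′ on the strand of the gene. Capitals mark matches, on either strand, to a TATA motif spelled TATAAA, to the box named for its letters CCAAT, and to the octamer ATTTGCAT.
H2AC15, chr6:27838326-27838625, minus strand: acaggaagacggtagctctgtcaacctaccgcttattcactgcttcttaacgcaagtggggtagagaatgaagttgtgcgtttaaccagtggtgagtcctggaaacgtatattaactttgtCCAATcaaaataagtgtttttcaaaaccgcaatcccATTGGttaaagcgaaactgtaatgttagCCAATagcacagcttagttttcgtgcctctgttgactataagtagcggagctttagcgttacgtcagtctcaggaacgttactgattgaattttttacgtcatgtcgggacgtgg
H2BC4, chr6:26123877-26124176, minus strand: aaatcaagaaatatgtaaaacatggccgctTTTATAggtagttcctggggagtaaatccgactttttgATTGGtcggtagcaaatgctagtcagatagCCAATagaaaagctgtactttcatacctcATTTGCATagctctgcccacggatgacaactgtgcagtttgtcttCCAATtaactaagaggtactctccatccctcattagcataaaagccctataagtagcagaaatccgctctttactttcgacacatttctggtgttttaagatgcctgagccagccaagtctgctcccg
H1-4, chr6:26156079-26156378, plus strand: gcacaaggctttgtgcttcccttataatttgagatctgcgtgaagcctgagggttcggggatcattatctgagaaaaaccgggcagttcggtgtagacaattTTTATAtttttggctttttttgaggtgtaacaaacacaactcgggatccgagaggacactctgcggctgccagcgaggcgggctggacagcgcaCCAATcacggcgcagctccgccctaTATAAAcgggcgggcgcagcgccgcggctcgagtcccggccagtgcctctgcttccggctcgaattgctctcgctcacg
H4C11, chr6:27823842-27824141, plus strand: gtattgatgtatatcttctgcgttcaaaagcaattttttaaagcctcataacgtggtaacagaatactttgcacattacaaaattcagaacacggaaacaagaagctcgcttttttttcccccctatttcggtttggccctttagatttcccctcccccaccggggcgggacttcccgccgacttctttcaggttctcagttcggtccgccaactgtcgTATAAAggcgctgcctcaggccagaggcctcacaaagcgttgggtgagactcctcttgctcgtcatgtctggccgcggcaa
H2AC17, chr6:27893136-27893435, minus strand: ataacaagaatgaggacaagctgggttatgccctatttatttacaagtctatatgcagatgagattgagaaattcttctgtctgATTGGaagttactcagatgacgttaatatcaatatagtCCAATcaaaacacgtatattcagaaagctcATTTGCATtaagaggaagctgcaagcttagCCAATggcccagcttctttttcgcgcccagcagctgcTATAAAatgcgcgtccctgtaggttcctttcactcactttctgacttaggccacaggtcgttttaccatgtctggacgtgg
H3C8, chr6:26271364-26271663, minus strand: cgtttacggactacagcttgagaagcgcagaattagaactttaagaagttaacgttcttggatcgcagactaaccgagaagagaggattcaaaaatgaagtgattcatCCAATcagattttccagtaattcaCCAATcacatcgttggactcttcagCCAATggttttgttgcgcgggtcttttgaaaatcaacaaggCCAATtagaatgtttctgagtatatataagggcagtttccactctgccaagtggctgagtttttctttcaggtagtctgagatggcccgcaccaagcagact
The first 4 belong to genes with H3K4me3 in every library, among them H1-4 and H2AC15, with the highest H3K4me3 folds of the H1 and H2A classes in WT, and H2BC4, which shared the highest folds of the cluster in KO with H2AC6. H2AC17 had the lowest H3K27ac in KO relative to WT, and H3C8 stands for the genes without H3K4me3 whose bodies held a p53 peak in both genotypes.

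These promoters share sequence features that the rule did not use. Of the 50 genes with a promoter entry, 66% held TATAAA, against 9.64% of the promoters of 15813 protein-coding genes of the same length. CCAAT was found in 86% against 36.3%, and ATTTGCAT in 44% against 1.70%. Head-to-head H2A and H2B genes have overlapping promoter windows that were read on both strands, so 1 element can be counted at both genes. The TTTATA marked in the H2BC4 sequence, for example, reads TATAAA on the strand of H2AC6, near the start of that gene. These shares therefore do not count separate promoters. The octamer was concentrated in the genes of the H2A-H2B dimer, with 81.8% of H2A and 80% of H2B promoters, while it was in no H1 or H4 promoter. The single match among the H3 genes (12.5%) is H3C4, whose annotated start is that of H2AC7, so it is the H2AC7 promoter counted again. CCAAT was in every H1, H2A, H2B and H3 promoter with an entry but in only 30% of H4 promoters. The median GC content was 42.3% in the histone promoters and 62.7% over all. A p53 half-site, the 10-base motif by that name, was matched in 8% of the histone promoters and in 5.93% of all promoters, which describes letters in this window and not binding.

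A gene was scored as called in a library when at least 1 bp of a peak overlapped its body extended by 1 kb on each side, and its value was the highest fold enrichment of those peaks, the authors' ratio of ChIP over local background. Because the genes are closely spaced, 32 of them had another of the 55 in their window, and the 55 windows merged into 33 loci. Genes of 1 locus often share 1 peak and are then named together, since they are not separate measurements. The highest peak of a gene can also differ between libraries. Of the genes called in every library, the peaks had a position in common at 31 of 32 for H3K4me3, 24 of 32 for H3K27ac, 3 of 5 for p53, 22 of 29 for H3K4me1 and 10 of 18 for MLL1. Lists held between 278 peaks (MLL4 in KO) and 198757 peaks (H3K27ac in WT replicate 2), and read depth is unknown. As a check of the cell type, 7 of 9 colorectal epithelial markers had an H3K4me3 peak in all 4 libraries (VIL1 and CDX1 had none), as did 3 of 9 markers of other cell types (PECAM1, CDH5 and RBFOX3).

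H3K4me3 divided the cluster into genes with and without a peak in their window, called marked and unmarked here, and the division was almost the same in the 2 genotypes. A peak was called at 32 and 32 genes in KO and at 32 and 34 in WT. The same 32 genes were called in all 4 libraries, and 21 were called in none. The remaining pair, H2BC13 and H2AC13, shared a single peak of fold 40.0 in WT replicate 2 alone. No gene was called in both WT and neither KO library (0.416% of all protein-coding genes were), and no gene in both KO and neither WT library (0.32% of all). The marked genes were 2 of 6 H1, 8 of 12 H2A, 8 of 15 H2B, 6 of 10 H3 and 8 of 12 H4 genes. A marked gene need not hold the peak at its own promoter. H2BC5 and H4C8, for example, took their folds from peaks with summits outside their bodies. In KO replicate 2 and WT replicate 1 the window of H3C12 met only the edge of the peak over H2AC17 and H2BC17. The 20 loci with them lie among the unmarked genes in 3 of the 4 groups, and only the isolated pair H2AC1 and H2BC1 forms a group without any.

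**Figure D1:**
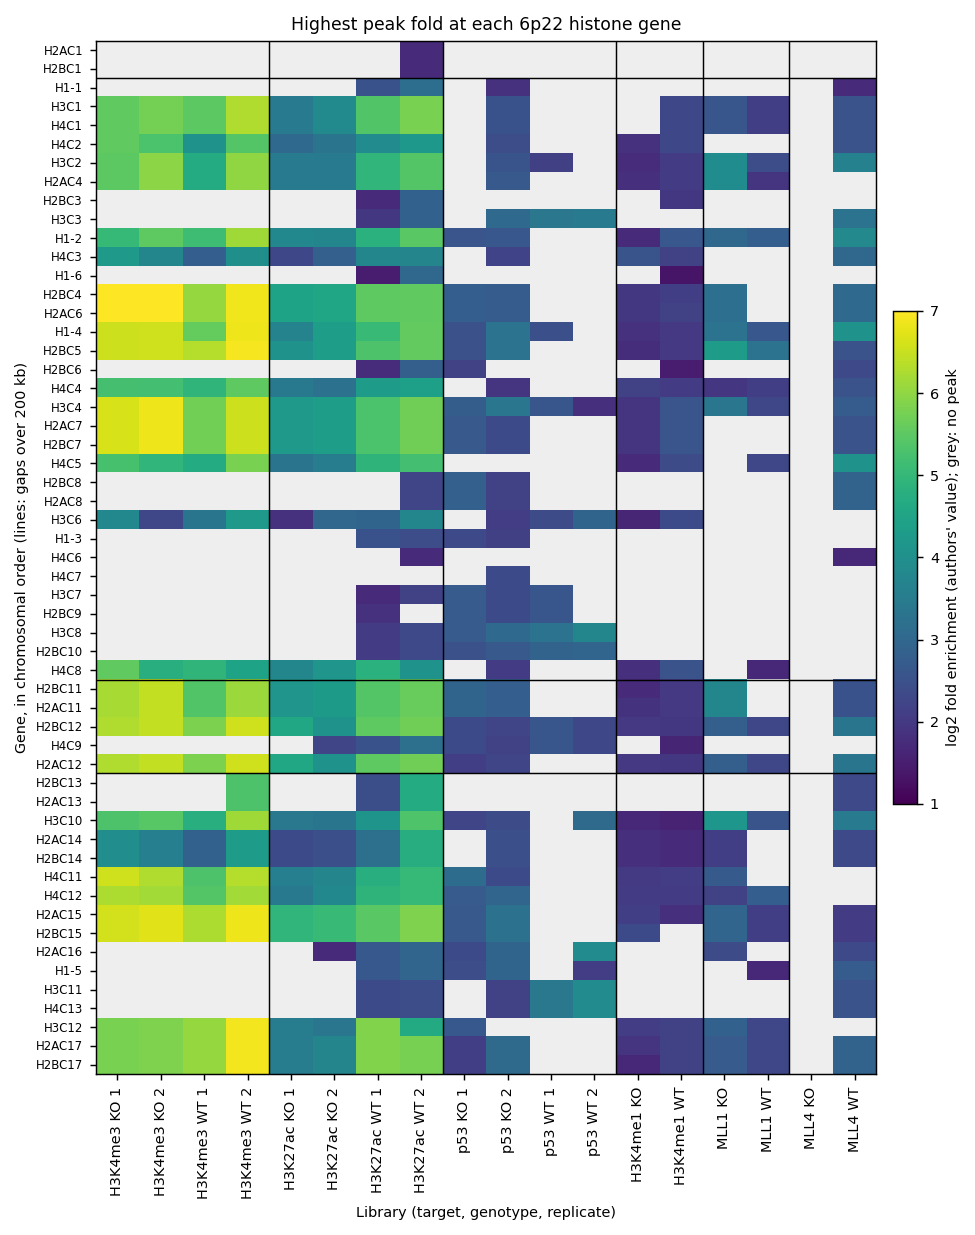
The highest peak fold of each of the 55 genes (rows, in chromosomal order) in each of the 18 libraries (columns, KO left of WT for each target), as log2 of the authors' fold enrichment, with grey where no peak was called. H3K4me3 and H3K27ac in KO fill largely the same 32 rows, p53 fills more rows in KO than in WT, and the MLL4 column of KO is empty.

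Among the linker histone genes, H1-4 had H3K4me3 folds of 93.3 and 94.5 in KO and 47.5 and 115 in WT. The divergent pair H2AC15 and H2BC15 had 96.9 and 107 in KO, against 76.7 and 115 in WT. At both of these promoters the KO folds lay between the 2 WT folds. H2BC5, the gene with the highest mean in its class in WT, has no such comparison. Its annotated transcript is 13229 bp long, and its highest peak in WT, of 80.8 and 120.3, had its summit 14119 and 14179 bp from the start, past the far end of the gene, while in KO its highest peak was that of H1-4. The pair H2BC4 and H2AC6 shared a peak of 129 and 129.8 in KO and of 66.6 and 117 in WT, where both KO folds were above both WT folds. The H4 gene with the highest mean in WT, H4C1, shared its peak with the adjacent H3C1, at 46.5 and 53.6 in KO and 44.8 and 77.7 in WT. These values too lay inside the WT range.

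Lower KO folds without overlap were found at 1 locus. H3C12, H2AC17 and H2BC17 share an H3K4me3 peak of 55.3 and 57.6 in KO and of 66.6 and 119 in WT, a mean of 56.5 ± 1.62 against 92.6 ± 36.8 (SD, n = 2 libraries each), or −0.66 as log2 KO over WT. The summit lay inside H2BC17 in every library. These 3 genes are the count of lower ones among the 32, where 20.8% of all protein-coding genes called in every library were lower. Both KO folds exceeded both WT folds at 8 genes in 4 loci, against 11.9% of all. One of them is the locus of H3C4, H2AC7 and H2BC7, with 98.9 and 115 in KO and 53.1 and 92.9 in WT, and a log2 ratio of 0.61. H4C2 had the highest ratio, 0.69, yet its folds overlapped, at 46.1 and 39.6 in KO and 16.7 and 42.4 in WT. H3C6 had the lowest ratio, −0.75, with weak and overlapping folds of 14.03 and 4.83 in KO and 10.0 and 19.1 in WT.

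Over the 32 genes the median log2 ratio of H3K4me3 was 0.20, with 21 genes above 0 and 11 below, and over all protein-coding genes it was −0.05. The direction rested on which WT library was used. The median fold of the 32 genes was 55.3 and 61.7 in KO and 43.5 and 77.7 in WT, so the WT libraries lay on both sides of KO. Without WT replicate 1 the median log2 ratio was −0.24 and 20 genes were lower in KO, and without WT replicate 2 as many as 26 were higher. When each library was centred on its own median over all genes, 14 genes were higher and 3 lower, beside 28.4% and 17.3% of all genes. With 2 libraries against 2, the exact two-sided permutation test cannot give a p below 0.333, and no other test of the deposited folds was made, so differences in fold are described here and in the comparisons that follow without a call of significance.

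H3K27ac was lower in KO at nearly every marked gene of the cluster. All 32 genes with H3K4me3 in all 4 libraries also kept an H3K27ac peak in all 4, and 30 of them had both KO folds below both WT folds, where 88.4% of all protein-coding genes called in every library did. None had both KO folds above both WT folds (0.766% of all did). Their median fold was 11.7 and 14.3 in KO, against 39.2 and 46.3 in WT. A mean in KO of at most 50% of that in WT, on the log scale, was found at 27 of the 32, a count not made over all genes. At the median the fold was 2.45 times as high in WT at the 32 genes and 1.92 times over all protein-coding genes. The median log2 ratio was −1.29, against −0.94 over all protein-coding genes, −0.96 over those with H3K4me3 in all 4 libraries and −0.70 over the other genes of the interval. The lower H3K27ac was thus shared with the genome, and the histone genes lay 0.35 below the median of all genes on the log2 scale. That gap rested on WT replicate 2. Against WT replicate 1 the medians of the histone genes for KO replicates 1 and 2 were −1.07 and −1.01, beside −0.97 and −0.98 over all genes, and against WT replicate 2 they were −1.48 and −1.36, beside −0.89 and −0.89. Of the 24 genes whose peaks had a position in common in all 4 libraries, 23 were lower in KO without overlap, a count not made over all genes. After that shift was removed, 21 of the 32 genes were lower and 2 higher, beside 25.9% and 25.7% of all genes. When each library was centred on its own median, 11 were lower and 2 higher, beside 20.8% and 32.9% of all.

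The lowest ratio was that of the divergent pair H2AC17 and H2BC17, whose folds were 11.4 and 13.3 in KO and 58.3 and 54.6 in WT. Their means were 12.4 ± 1.33 in KO and 56.4 ± 2.64 in WT (SD, n = 2 each), a log2 ratio of −2.19, which is 4.57 times as high in WT. In WT a single peak spanned the pair, while in KO the highest peak lay over H2AC17 in replicate 1 and over H2BC17 in replicate 2. The neighbouring H3C12 held a summit only in WT replicate 2, at 25.2, and its window took the edge of the pair's peak in WT replicate 1. Both genes of the pair also had lower H3K4me3 folds in KO without overlap. H3C1 and H4C1 followed, with 10.97 and 14.7 in KO and 41.6 and 55.1 in WT, a log2 ratio of −1.91. At all of these genes the groups stood well apart.

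The smallest difference was at H4C8, with 13.5 and 17.6 in KO and 28.6 and 16.96 in WT, where the groups overlapped. H2AC15 and H2BC15 had the highest H3K27ac of the cluster in KO, 30.8 and 32.7, against 44.3 and 57.5 in WT, a log2 ratio of −0.67. The linker histone genes H1-4 and H1-2 lay near the median. H1-4 had 12.8 and 20.5 in KO, against 32.7 and 46.9 in WT, and H1-2 had 13.98 and 13.5 in KO, against 28.3 and 44.1 in WT. H4C5, an H4 gene, had 9.87 and 11.4 in KO and 29.8 and 37.0 in WT, a log2 ratio of −1.65.

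**Figure D2:**
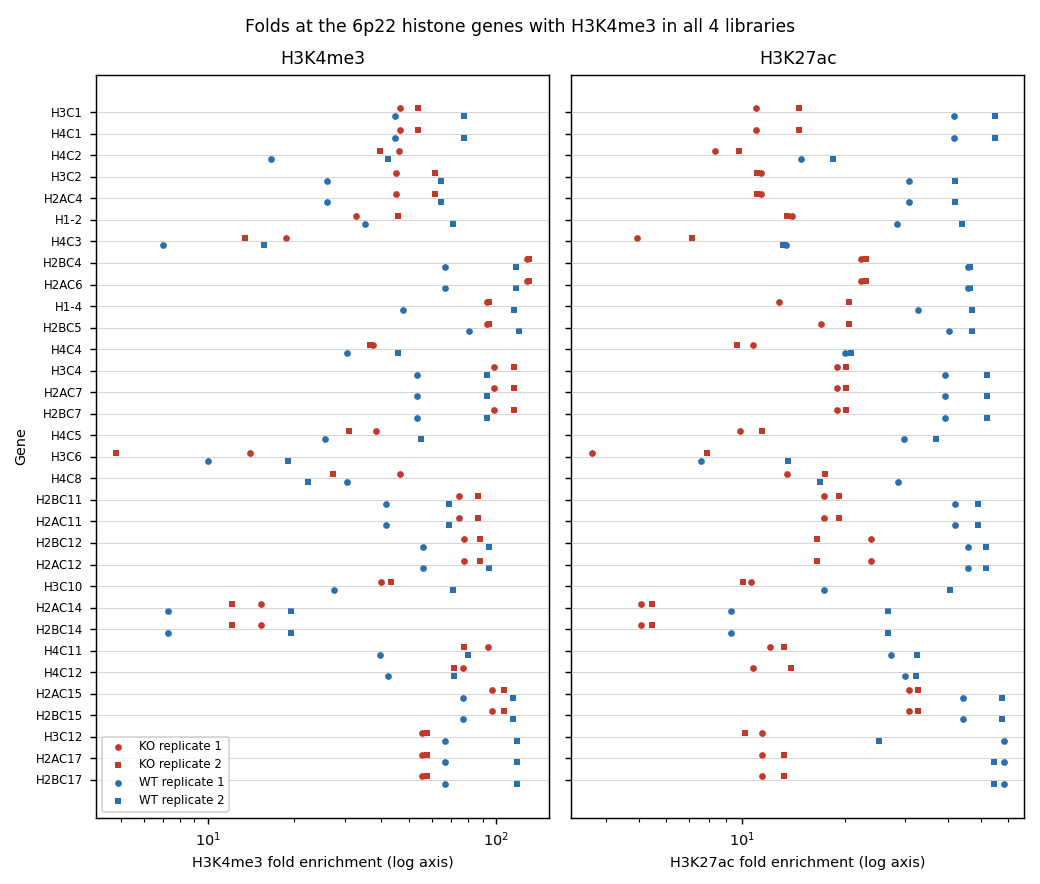
Fold enrichment on log axes of H3K4me3 (left) and H3K27ac (right) at the 32 genes with H3K4me3 in all 4 libraries, 1 gene per row, with KO libraries in red just above WT libraries in blue, circles for replicate 1 and squares for replicate 2. For H3K4me3 the KO and WT points overlap in 21 of the 32 rows, and for H3K27ac both KO points lie below both WT points at 30 genes.

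At the genes without H3K4me3, weak H3K27ac peaks were called in WT and hardly any in KO. H3K27ac was called at 32 and 34 of the 55 genes in KO and at 49 and 53 in WT. Over all protein-coding genes the shares were 74.7% and 73.4% in KO and 84.9% and 87.3% in WT. At the 21 genes without H3K4me3 it was called at 0 and 2 in KO and at 15 and 19 in WT (71.4% and 90.5%). Other protein-coding genes without H3K4me3 were called at 25.4% and 20.8% in KO and at 52.1% and 59.3% in WT. Both WT libraries and neither KO library held a peak at 14 genes in 10 loci, beside 7.79% of all protein-coding genes, and 12 of the 14 had no H3K4me3 in any library. No gene showed the reverse, beside 0.03% of all. H1-1 had folds of 5.70 and 8.92 in WT, and H1-5 with H2AC16 next to it had 6.30 and 7.80, while H2AC16 also had 3.33 in KO replicate 2. H3C3 had 3.91 and 7.24 in WT, and H1-3 had 5.70 and 5.37. The strongest of the 14 were H2AC13 and H2BC13, at 5.40 and 25.8 in WT, the pair with H3K4me3 in the same second WT library only.

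Lists were much longer in WT for this mark, with 65050 and 61959 peaks in KO and 139104 and 198757 in WT. When every list was shortened to 61959 peaks, 4 genes instead of 14 were called in both WT and neither KO library, beside 1.83% of all genes, and with a −log10 q-value of at least 5 the count was 9, beside 7.77%. The part of list length in the remaining calls was not tested.

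p53 peaks at the histone genes were more numerous in KO. A p53 peak was called at 31 and 45 of the 55 genes in KO and at 13 and 12 in WT. Over all protein-coding genes, whose longer bodies give a peak more room, the shares were 64.3% and 79.0% in KO and 64.4% and 64.3% in WT, and among the 37 other genes of the interval 9 and 22 were called in KO and 9 and 9 in WT. KO replicate 1 had the shortest list of the 4, with 24972 peaks, beside 62248 in KO replicate 2 and 36525 and 32631 in WT, and it still held more than 2 times as many of the histone genes as either WT list. In all, 18 of the 55 genes, in 12 loci, were called in both KO and neither WT library (KO-only), where 6.07% of all protein-coding genes were. With windows of 1 kb on each side of the start site the count was 19 of the 50 genes with a known start, beside 8.39% of all. In that window p53 was called at 58% and 80% of the histone genes in KO and at 16% and 16% in WT, beside 56.1% and 68.9% of all genes in KO and 51.9% and 51.7% in WT. No gene was called in both WT and neither KO library (1.07% of all were).

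H2A and H2B genes, which are 27 of the 55, gave 14 of the 18 KO-only p53 calls, and a pair that shares a peak counts as 2 genes here. H1-2, H1-3, H4C11 and H4C12 were the others, and no H3 gene was among them. By class, p53 was called at 4 and 5 of 6 H1 genes in KO and at 1 and 1 in WT, and at 8 and 10 of 12 H2A genes in KO and at 0 and 1 in WT. H2B genes had 11 and 11 of 15 in KO and 3 and 2 in WT. Of the 22 and 33 distinct peaks in KO, 6 and 8 had their summit inside an H2A gene and 3 and 0 inside an H2B gene. Most H2B calls in KO thus came from peaks with the summit outside the gene. H3 genes had 5 and 9 of 10 in KO and 7 and 6 in WT, and H4 genes 3 and 10 of 12 in KO and 2 and 2 in WT. The 4 classes other than H3 had more calls in either KO library than in either WT library, and the H3 counts overlapped.

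H2AC15 and H2BC15 share a p53 peak of fold 6.38 in KO replicate 1 and 9.66 in KO replicate 2, with no peak in WT. The summit lay inside the body of H2AC15, 211 and 273 bp downstream of its start, and so outside the promoter letters printed above. At H2BC11 and H2AC11 the folds were 7.66 and 6.98 in KO, and at H4C12 6.64 and 7.77, with no peak in WT. H2BC5 had 5.64 and 9.77 in KO and none in WT, but that peak lay over the adjacent H1-4, with its summit 1261 and 1314 bp before the start of H2BC5, and H1-4 had a WT peak of its own of 5.52 in replicate 1. H2AC17 and H2BC17 had 4.31 and 8.49 in KO and none in WT. The median fold over all p53 peaks of a list was 5.62 and 5.08 in KO and 7.55 and 12.0 in WT.

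**Figure D3:**
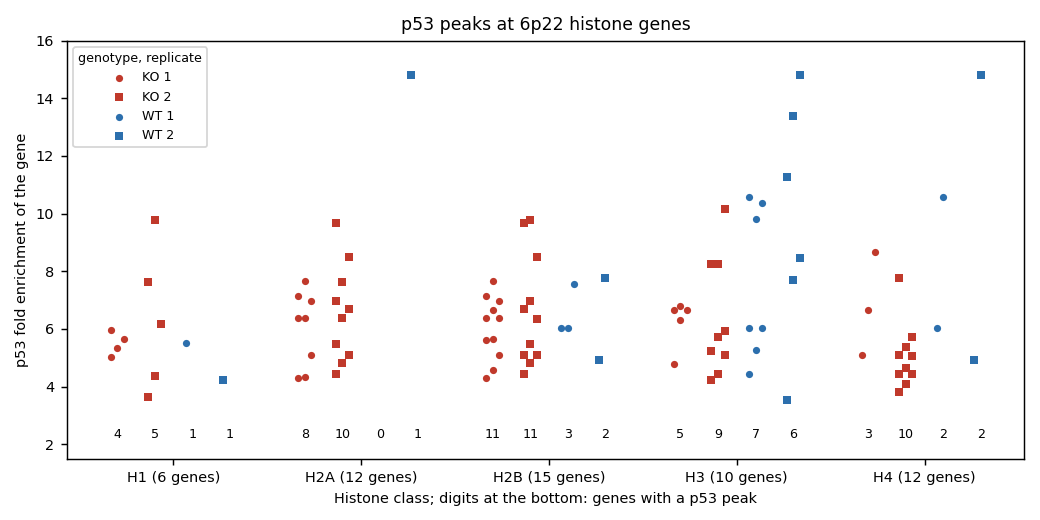
p53 fold enrichment (linear axis) of every histone gene with a p53 peak, by class along the horizontal axis, with KO libraries in red left of WT libraries in blue, circles for replicate 1 and squares for replicate 2, and the number of genes called in each library at the bottom. H2A has 8 and 10 genes called in KO and 0 and 1 in WT, while H3 has 5 and 9 in KO and 7 and 6 in WT. The highest WT fold, 14.8, is that of H2AC16, H3C11 and H4C13, and so occurs in H2A, H3 and H4.

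The p53 calls were then split by H3K4me3 state. Among the 32 genes with H3K4me3 in all 4 libraries, p53 was called at 20 and 30 in KO and at 5 and 4 in WT. Other protein-coding genes with H3K4me3 in all 4 libraries were called at 84.7% and 94.1% in KO and at 75.6% and 75.9% in WT. As shares, the histone genes had 62.5% and 93.8% in KO and 15.6% and 12.5% in WT. These are whole-gene windows, and the start-site windows given above were not split by H3K4me3. In those, the histone genes were below all protein-coding genes in WT, at 16% and 16% against 51.9% and 51.7%. In KO they were close in replicate 1, at 58% against 56.1%, and above in replicate 2, at 80% against 68.9%. Of the 32, 15 were called in both KO and neither WT library, beside 8.75% of all protein-coding genes with H3K4me3 in all 4 libraries. At the 21 genes without H3K4me3, p53 was called at 11 and 15 in KO (52.4% and 71.4%) and at 8 and 8 in WT (38.1% and 38.1%). Other protein-coding genes without H3K4me3 were called at 22.3% and 46.2% in KO and at 39.8% and 39.1% in WT, and the WT shares of the 2 sets lay within 2 percentage points.

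**Figure D4:**
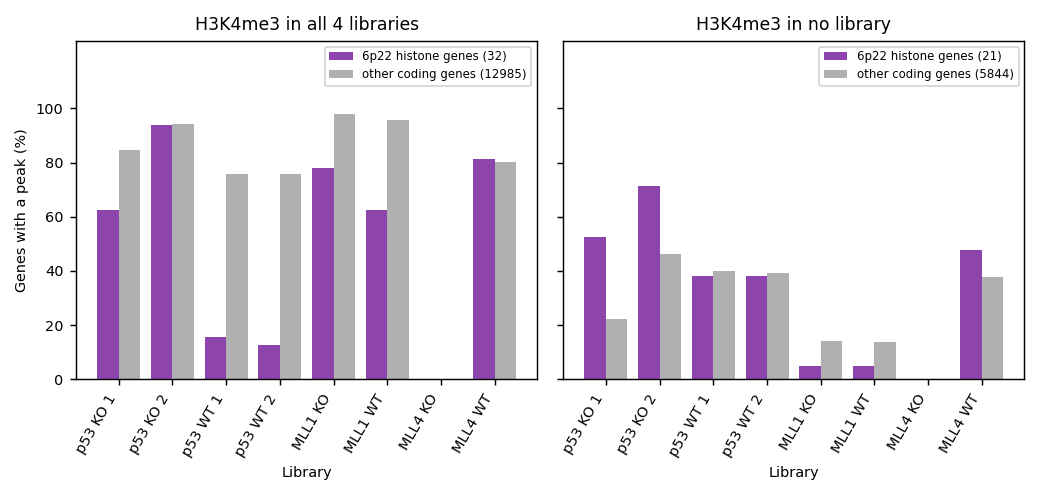
Percentage of genes with a p53, MLL1 or MLL4 peak in each library (KO left of WT for each target) for the 6p22 histone genes (purple) and the other protein-coding genes (grey), for genes with H3K4me3 in all 4 libraries (left) and in none (right). At the 32 marked histone genes p53 was called at 62.5% and 93.8% in KO and at 15.6% and 12.5% in WT.

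The few p53 peaks of WT lay largely inside H3 genes. Each WT library held 10 distinct p53 peaks at the cluster, and the summits of 7 and 6 of them fell inside the body of an H3 gene, at a median of 173 and 119 bp from its start. In KO 5 of 22 and 9 of 33 distinct peaks did so. H3C8, whose promoter is printed above and which has no H3K4me3, had p53 folds of 6.64 and 8.25 in KO and 9.82 and 13.4 in WT, without overlap. H3C3 had 8.25 in KO replicate 2 only, and 10.4 and 11.3 in WT. H3C11 had 4.44 in KO replicate 2 only, and 10.6 and 14.8 in WT. At these 3 genes the folds of both WT libraries were above every KO fold, a pattern not counted over all genes. In all, 8 H3 genes had a p53 peak in a WT library. H3C6 had 4.24 in KO replicate 2 only, and 5.26 and 7.69 in WT. H3C10 had 4.79 and 5.23 in KO and 8.46 in WT replicate 2 only. H3C2 had 5.92 in KO replicate 2 and 4.43 in WT replicate 1. H3C7 had 6.64 and 5.08 in KO and 6.04 in WT replicate 1, and H3C4 was higher in KO. Coding sequences of the H3 genes are nearly identical, and how reads that align to several of them were treated is not given in the sources used here, so these values cannot be ascribed to 1 gene with certainty.

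Only 5 genes had p53 peaks in all 4 libraries. Both KO folds were lower at 2 of them, H3C8 and its neighbour H2BC10, where 51.1% of all protein-coding genes called in every library were lower. H2BC10 had 5.62 and 6.35 in KO and 7.55 and 7.75 in WT, a log2 ratio of −0.36, from peaks with no position common to all 4 libraries. H3C4 alone was higher in both KO libraries, where 4.71% of all were, with 6.79 and 10.2 in KO and 6.04 and 3.52 in WT and a log2 ratio of 0.85, at a peak 2120 to 2202 bp from the annotated start that it shares with H2AC7. H2BC12 and H4C9, which share their WT peak, overlapped between the genotypes, at 5.11 and 4.81 (H2BC12) and 5.11 and 4.44 (H4C9) in KO and 6.04 and 4.93 in WT. The median log2 ratio of the 5 genes was −0.20, against −0.70 over all protein-coding genes, so relative to all genes it was 0.50, and the sign depends on that scaling.

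The number of KO-only p53 calls depended on the strictness of the lists. It was 11 with a −log10 q-value of at least 5, beside 4.60% of all genes, and 14 with lists of equal length, beside 7.67% of all. Without KO replicate 1 it was 29. With a −log10 q-value of at least 5, p53 was called at 22 and 22 histone genes in KO and at 10 and 8 in WT. As shares these were 40% and 40% in KO and 18.2% and 14.5% in WT. All protein-coding genes had 51.8% and 66.2% in KO and 57.4% and 61.1% in WT, so in these whole-gene windows the histone genes lay below them in both genotypes.

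MLL4 was found at most histone genes in WT and at none in KO. The WT library, of which there is 1, held a peak at 38 of the 55 genes, and the KO library at 0, beside 67.1% of all protein-coding genes called in WT and not in KO. The histone genes are short, so the whole-gene share is not a like comparison. With windows of 1 kb on each side of the start site, MLL4 was called in WT at 31 of 50 histone genes (62%), beside 35.2% of all protein-coding genes. With a −log10 q-value of at least 5, 26 of the 55 were called in WT (47.3%), against 23.9% of all protein-coding genes. The highest WT folds were those of 2 linker histone genes and an H4 gene, with 16.98 at H1-4, 16.7 at H4C5 and 14.2 at H1-2, where the median over the called histone genes was 5.84. MLL4 was called in WT at 26 of the 32 genes with H3K4me3 (81.2%) and at 10 of the 21 without (47.6%), beside 80.3% and 37.8% of other protein-coding genes of the same states. There is no replicate of MLL4, MLL1 or H3K4me1, and differences in these 3 targets have no replicate check.

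MLL1 was called at 26 histone genes in KO and at 21 in WT, beside 70.3% and 68.6% of all protein-coding genes. Of the 55, 8 were called in KO and not in WT (6.08% of all were) and 3 in WT and not in KO (4.41% of all). Among the 18 genes called in both, the fold was at least 2 times as high in KO at 5, where it was so at 78% of all protein-coding genes called in both, and at none was it at least 2 times as low, beside 0.109% of all. The median log2 ratio was 0.56, against 1.60 over all protein-coding genes. The histone genes with MLL1 in both genotypes thus lay toward higher folds in KO by less than most genes. Relative to the median of all genes 10 of the 18 were at least 2 times as low, a count not made over all genes. At 8 of the 18 the KO and WT peaks had no position in common. The median MLL1 fold of the called histone genes was 7.52 in KO and 4.84 in WT, beside 28.8 and 9.67 over all called protein-coding genes.

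Where the KO and WT peaks overlapped at the gene itself, the ratio was highest at H3C10, with an MLL1 fold of 17.8 in KO and 5.91 in WT. H3C2 followed, with 15.2 in KO and 5.37 in WT. H2AC4 took the KO peak of H3C2, of 15.2, while its WT peak of 3.76 was its own, so its ratio sets a pair of different peaks side by side. The highest MLL1 folds assigned to the cluster, 19.5 in KO and 9.75 in WT, came from a peak whose summit lay 13944 and 14309 bp from the start of H2BC5, past the far end of that gene. At the other end, H1-2 had 8.10 in KO and 6.98 in WT, while H4C12, with 4.53 in KO and 6.98 in WT, and H4C4, with 3.85 in KO and 4.30 in WT, had peaks at different positions in the 2 genotypes. Among the genes called only in KO were the divergent pairs H2BC11 with H2AC11, at 13.6, and H2BC4 with H2AC6, at 9.07.

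H3K4me1 was weak at the histone genes, with folds of at most 6.20, and no gene called in both genotypes differed by 2-fold. It was called at 30 genes in KO and 35 in WT, beside 73.1% and 85.0% of all protein-coding genes. A peak was present in WT and not in KO at 6 genes (13.2% of all) and in KO and not in WT at H2BC15 alone (1.28% of all), with a fold of 5.05. None of the 29 genes called in both was at least 2 times as low or as high in KO, where 22.5% of all protein-coding genes called in both were lower and 0.251% higher. Their median log2 ratio was −0.18, against −0.60 over all protein-coding genes. H1-2 had the largest difference, 3.32 in KO and 6.20 in WT, followed by H4C8, with 3.51 and 5.82, and H3C6, with 3.12 and 5.12. At H4C3 the order was the other way, with 5.92 in KO and 4.56 in WT. H3C4, H2AC7 and H2BC7 share the peaks with the second highest WT fold, 5.97, against 3.75 in KO. The WT list is longer, 125507 peaks against 43636 in KO, and with lists of equal length 2 genes were called only in WT and 19 only in KO, so the direction of these calls depends on list length.

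The genes known mainly from testis, H1-6, H2AC1 and H2BC1, had no H3K4me3, p53, MLL1 or MLL4 peak in either genotype. H1-6 had weak H3K27ac of 2.79 and 8.17 and H3K4me1 of 2.53, all in WT. The pair H2AC1 and H2BC1 had a single H3K27ac peak of 3.31 in WT replicate 2. No peak of any target was called at these 3 genes in KO.

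The genes that serve histone gene expression were read next. Of 18 genes for the transcription and RNA 3′ processing of histone genes, all 18 had H3K4me3 and H3K27ac peaks in all 4 libraries, as did 65.2% of all protein-coding genes for H3K4me3 and 71.3% for H3K27ac. H3K27ac was lower in both KO libraries than in both WT libraries at 17, beside 88.4% of all, with a median log2 ratio of −1.08 beside −0.94. For NPAT the H3K27ac folds were 15.7 and 16.2 in KO and 41.4 and 20.3 in WT. CASP8AP2, a partner in histone mRNA 3′ processing, had 21.7 and 21.7 in KO and 43.4 and 42.4 in WT, and a p53 peak in KO only, at 5.11 and 5.33. SLBP had H3K27ac folds of 57.3 and 38.5 in KO and 142 and 159 in WT. For all 3 the H3K27ac values in KO were the lower ones. The p53 folds of NPAT were 3.56 and 5.70 in KO and 3.69 in WT replicate 1. Those of SLBP were 7.83 and 13.7 in KO and 10.6 and 29.6 in WT. Of the 18 genes, 10 had p53 in all 4 libraries, beside 51.7% of all protein-coding genes. In both KO and neither WT library p53 was called at 2 of them, beside 6.07% of all.

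The replication-dependent histone genes outside 6p22 give the nearest comparison. Of 15 such genes, 13 had H3K4me3 in all 4 libraries, beside 65.2% of all protein-coding genes. All 11 with H3K27ac in all 4 had lower folds in both KO libraries, beside 88.4% of all, with a median log2 ratio of −1.33, where it was −1.29 at the 6p22 genes and −0.94 over all. Of 12 replication-independent histone genes, 10 had H3K27ac in all 4 libraries. All 10 were lower in both KO libraries, with a median log2 ratio of −1.54, so a ratio below that of all genes was not particular to replication-dependent genes. p53 was called in both KO and neither WT library at 3 of the 15, the neighbours H2AC20, H2AC21 and H2BC21, which share a peak of 8.71 and 11.6 in KO, beside 6.07% of all genes. Whether the p53 counts of these 15 genes and the 6p22 genes differ was not tested.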

How the data were processed

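ChIP-seq of 6 targets in KO and WT HCT116 cells was read from 18 peak lists, and the 2 inputs were not analysed here. MACS2 2.1.1 and hg38 are named in the submitters' processing notes. Peak names in the deposited lists show calling per library against the input of its genotype. Aligner, read filters, multiple alignments and depth: not given in the sources used here, so no counting interval can be attached to a call. For each peak the authors give a fold, which is ChIP signal as a ratio to the local background. The deposited lists also hold −log10 p-values and −log10 q-values, and a whole-number score that entered no result.

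Gene positions came from RefSeq on GRCh38.p14, on chromosomes 1 to 22 and X. Each gene received the highest fold among peaks overlapping its body plus 1 kb by at least 1 bp. Log2 ratios are mean log2 KO minus mean log2 WT fold of genes called in every library. Calls in 1 genotype only were counted beside all 19974 protein-coding genes, and folds were set side by side without a test. For single-library targets a difference of 2-fold was counted. Promoter sequences were found for 50 of the 55 genes and not used for H4C1, H4C3, H2AC12, H3C11 and H3C12. Calculations used Python 3.11.15, pandas 2.3.3 and numpy 2.4.6, and the counting step was tested on simulated data.

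The genes and the lists of regulators, other histone genes and markers were chosen with earlier results of these data known. Named genes were, in each class, the one with the highest WT H3K4me3 fold, up to 6 genes called in 1 genotype only per replicated target, the 3 lowest and 3 highest ratios per target, the 3 highest WT folds of MLL4, MLL1 and H3K4me1, the testis genes, and NPAT, CASP8AP2 and SLBP. Other values, among them p53 at H3C3, H3C11 and H2AC17, were chosen after they were seen. Alternatives were other windows, a −log10 q-value of at least 5, lists of equal length, assignment to the nearest gene, mean folds, centring, a replicate block and leaving out each replicate. The start-site window, centring per library, crossed replicate numbers and the count of genes whose peaks share a position were added after the data were seen.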

Additional observations from a re-analysis of the deposited data

How the results depend on the processing

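Read depth, the handling of repeated alignments and differences in list length limit every call. Most alternatives, 217 of 285, stayed within 1.5 times the count or within the spread of the ratios over library pairs. Among the 217 are medians under the replicate block and crossed replicate numbers, which equal the main medians by construction. Counts of 0 that stayed 0 are also among them. Where a cause is not named, it was not tested. With each peak counted for its nearest gene only, H3K4me3 was lower at 1 and higher at 4 genes, H3K27ac was called only in KO at 2 and lower at 18, p53 only in KO at 10, H3K4me1 only in KO at 6 and MLL1 only in WT at 5. With gene bodies alone, p53 was lower at 1, H3K4me1 was called only in WT at 18, and MLL1 only in WT at 7, only in KO at 5 and at least 2-fold higher at 3. With 5 kb on each side, H3K27ac was higher at 1, p53 lower at 6 and higher at 4 with a median log2 ratio of −0.63, H3K4me1 was called only in KO at 0, and MLL1 only in KO at 3 and higher at 15. With a −log10 q-value of at least 5, genes called only in WT numbered 9 for H3K27ac, 2 for p53, 16 for H3K4me1 and 1 for MLL1. Genes called only in KO then numbered 11 for p53, 0 for H3K4me1 and 17 for MLL1, p53 was higher at 0 with a median of −0.49, and MLL1 at 2. With lists of equal length, genes called only in WT were 4 for H3K27ac, 2 for p53, 2 for H3K4me1, 1 for MLL1 and 0 for MLL4, whose lists then hold 278 peaks. H3K4me1 was then called only in KO at 19, and p53 was higher at 0 with a median of −0.49. With mean folds the p53 median was −0.39. With the start-site window it was −0.36, p53 was higher at 0, H3K4me1 was called only in KO at 0 and MLL1 was higher at 3.

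Centring on the median of all genes gave H3K27ac a median of −0.35 with 2 genes higher. p53 then had 0 lower, 4 higher and a reversed median of 0.50, and MLL1 10 lower and 0 higher. These MLL1 counts were not made over all genes. Centring each library gave H3K4me3 14 higher, H3K27ac 11 lower and 2 higher with a median of −0.27, and p53 0 lower with a reversed median of 0.56. Leaving out each replicate in turn, H3K4me3 was called only in WT at 0 to 2, lower at 3 to 20 and higher at 8 to 26, with medians of −0.24 to 0.71. p53 was then called only in KO at 20 to 29 and only in WT at 0 to 4, and was lower at 2 to 8 and higher at 1 to 2, with medians of −0.39 to −0.10. H3K27ac was called only in WT at 14 to 19 and lower at 31 to 32, with medians of −1.41 to −1.07.

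Same-numbered libraries of the 2 genotypes are not said to share a culture or day. Their deviations from the genotype means correlated across genes at −0.17 for H3K4me3, −0.11 for H3K27ac and 0.019 for p53. With the replicate block, H3K4me3 was lower at 4 and higher at 9 genes, H3K27ac lower at 31, and p53 lower at 4 and higher at 1. With the numbers crossed, H3K4me3 was lower at 4 and higher at 11, and H3K27ac lower at 31.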
